A study of Mus musculus with 8 samples.

Results

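Histone genes were described here in mouse embryonic stem (ES) cells that had received esiRNA against Ctr9 or against luciferase. Members were the replication-dependent genes of the histone clusters (older symbols starting with Hist1h, Hist2h, Hist3h or Hist4h) and 10 listed variant genes, wherever a probe set named 1 such gene alone. Each gene was read by its brightest probe set over the 8 arrays. The rule found 20 genes, 11 cluster genes and 9 variants, by 29 probe sets, among 18193 genes and 45037 probe sets tested. The variant H1f0 had no probe set of its own in the annotation used here. The annotation uses the newer histone symbols, so the older ones were matched through Entrez identifiers, and the reference gene table holds 70 cluster genes in all. A further 18 probe sets name several cluster genes at once, from 2 to 13 each; with the members' own, they cover 56 cluster genes. They fall outside the rule and are given beside the members, since most cluster genes were read only through them.

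The study compared 4 luciferase esiRNA arrays, the transfection controls, with 4 Ctr9 esiRNA arrays. All 8 hold ES cells of the strain labelled Oct4-Gip at passage 25, transfected by lipofection and collected on day 4. An esiRNA is a pool of short interfering RNAs made by enzymatic digestion of a long double-stranded RNA. Ctr9 is part of the Paf1 complex, a set of proteins bound to elongating RNA polymerase II. The labels do not say whether replicates were separate cultures, so the p-values cover the spread among these arrays alone, which may be technical, and 4 arrays a group limit the precision.

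Replication-dependent histone genes lie in clusters, lack introns and are transcribed mainly in S phase to supply histones for newly made DNA. Most of their mRNAs end in a conserved stem-loop bound by the stem-loop binding protein in place of a poly(A) tail, although some also give polyadenylated transcripts. Variant histones are made from separate genes, many with introns, polyadenylated mRNAs and expression not tied to S phase, though not all variants share these traits. They take special places in chromatin. ES cells cycle fast and spend much of the cycle in S phase. The total RNA was labelled by a one-cycle procedure, which primes cDNA from poly(A). Forms with and without a tail were not measured apart here, so a signal of a cluster gene need not follow the total amount of its mRNA.

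The groups differed widely across the transcriptome: 11209 of the 45037 probe sets passed (24.9%). The 3 brightest Ctr9 probe sets differed by -0.09 (adjusted p = 0.209), -0.15 (adjusted p = 0.0398) and -0.18 (adjusted p = 0.0279), while the dimmer pair differed by 0.29 (adjusted p = 0.0228) and 0.27 (adjusted p = 0.125). Of 10 ES cell markers 6 fell and 0 rose, with list means between 12.88 and 12.93 (log2 signal) on luciferase arrays and between 12.46 and 12.50 on Ctr9 esiRNA arrays. Of 8 trophectoderm markers 6 rose, with means between 6.96 and 7.08 and between 8.02 and 8.08. Of 10 feeder fibroblast markers 3 rose, with means between 5.30 and 5.40 and between 5.49 and 5.51. The feeder means lie below the median signal of all probe sets, 5.75. Among all genes, by their brightest probe sets, 15.8% rose and 15.0% fell. The part of these marker shifts in the histone differences was not tested. The difference between end probe sets of Gapdh, an RNA quality control, was -0.019 ± 0.0060 and -0.017 ± 0.021 (SD, n = 4, exact two-sided permutation p = 0.886). Differences are Ctr9 esiRNA minus luciferase esiRNA in log2 signal, with limma's moderated standard error (SE) and its p adjusted by Benjamini-Hochberg over all probe sets; a call needs an adjusted p under 0.05.

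Several replication-dependent histone signals were lower after Ctr9 esiRNA, and no cluster gene read alone was called higher. The differences of 3 cluster genes lay above 0 without passing. H1f2, a linker histone, fell by 0.65, H2aw, a core H2A histone, by 0.62, and H2bc22, a core H2B histone, by 0.44 on the log2 scale. Of the 11 cluster genes, 0 rose, 3 fell (27.3%) and 8 did not pass, beside 15.8% higher and 15.0% lower among all genes (30.8% either way). Their median difference was -0.12 and their range -0.65 to 0.17, beside a median of 0.0036 over all genes. Without the third Ctr9 esiRNA array, 5 cluster genes were called lower, the others being H2ac19 (adjusted p = 0.0159) and H3c11 (adjusted p = 0.0206). At an unadjusted p under 0.05, 1 was higher and 4 lower, beside 21.4% higher and 20.0% lower among all genes. Without probe sets of the classes that can cross-match, 2 of 10 cluster genes were called lower, H1f2 and H2ac19; H2bc22 then had no probe set, and H2aw was read by its other one. In a bulk sample, fewer cells of a type and less RNA per cell cannot be told apart.

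**Figure D1:**
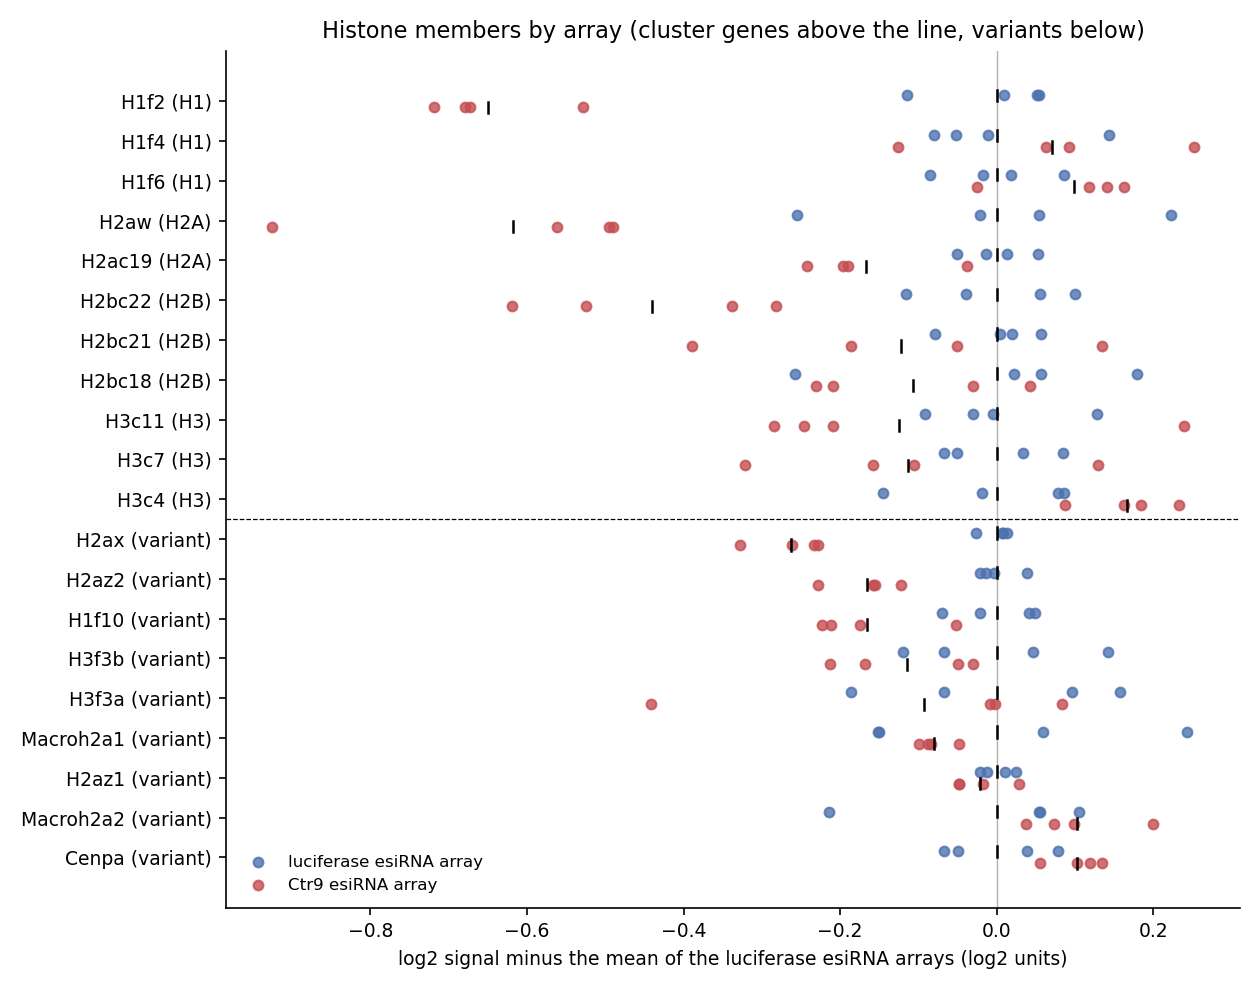
Log2 signal of each of the 20 histone genes on each array, by its brightest probe set, minus the mean of the gene's luciferase arrays. Points are arrays (blue luciferase, red Ctr9 esiRNA) and black ticks are group means. The Ctr9 esiRNA points of H1f2, H2aw, H2bc22 and H2ax lie below all the luciferase points, while those of H2az1 overlap them.

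Among linker histones, which bind the DNA between nucleosomes, H1f2 (Hist1h1c, chr13:23738807-23739531 in GRCm38.p6) carried the lowest difference of all members. Its luciferase arrays read 8.90, 8.90, 8.73 and 8.86 (log2 signal, replicates 1 to 4), and its Ctr9 esiRNA arrays read 8.17, 8.13, 8.32 and 8.18. All 4 Ctr9 esiRNA arrays were below all 4 luciferase arrays, and the difference was -0.65 (SE 0.059, adjusted p = 3.1e-05), a change of -36.2%. A second H1f2 probe set fell by 0.57 (SE 0.063, adjusted p = 0.000109); the third H1f2 probe set, the least bright, was at 0.03 (SE 0.084, adjusted p = 0.852). The other linker genes read alone were dim, below the median signal of all probe sets, 5.75. H1f4 (Hist1h1e) read 4.49, 4.68, 4.53 and 4.46 against 4.41, 4.60, 4.79 and 4.63, with overlapping groups and a difference of 0.07 (SE 0.081, adjusted p = 0.602). H1f6 (Hist1h1t), the linker histone of the testis, differed by 0.10 (SE 0.058, adjusted p = 0.266), and its groups overlapped too.

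For H2A, a core histone that pairs with H2B, H2aw (Hist3h2a, chr11:58954685-58955192) read 7.61, 7.85, 7.68 and 7.37 with luciferase esiRNA and 6.70, 7.07, 7.14 and 7.13 with Ctr9 esiRNA. The groups did not overlap, the first Ctr9 esiRNA array was the lowest, and H2aw fell by 0.62 (SE 0.12, adjusted p = 0.00334), a change of -34.8%. This probe set can match several transcripts by its design class. The other probe set of H2aw was dim and differed by -0.21 (SE 0.089, adjusted p = 0.127), and 1 shared with Trim17 fell by 0.23 (SE 0.068, adjusted p = 0.0324). H2ac19 (Hist2h2aa2) read 7.73, 7.76, 7.83 and 7.79 against 7.54, 7.59, 7.74 and 7.58. The third Ctr9 esiRNA array lay among the controls, and the difference of -0.17 (SE 0.055, adjusted p = 0.0501) missed the threshold, while a second H2ac19 probe set fell by 0.24 (SE 0.067, adjusted p = 0.0267). H2ac19 has a near-identical neighbour, H2ac18, so its signal may hold both. A probe set naming 10 H2A genes was the brightest of the family, near the highest value on any array, 15.01. It read 14.47, 14.49, 14.52 and 14.51 against 14.41, 14.50, 14.50 and 14.48 and differed by -0.03 (SE 0.044, adjusted p = 0.721), with overlapping groups; how far so bright a signal can follow a change was not tested.

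For H2B, H2bc22 (Hist1h2bp, chr13:21787483-21801561) read 6.50, 6.64, 6.59 and 6.42 against 5.92, 6.01, 6.20 and 6.26. Every Ctr9 esiRNA array was below every control, and H2bc22 fell by 0.44 (SE 0.082, adjusted p = 0.00283), a change of -26.3%. Its probe set is of a class that can cross-match similar sequences, so it is an uncertain reading of 1 gene. H2bc21 (Hist2h2be) and H2bc18 (Hist2h2bb) were dim, and their groups overlapped at -0.12 (SE 0.097, adjusted p = 0.418) and -0.11 (SE 0.097, adjusted p = 0.489). The shared H2B probe sets had brighter signals. One naming 11 genes, H2bc22 among them, read 10.96, 10.97, 11.01 and 10.92 against 10.29, 10.47, 10.64 and 10.48 and fell by 0.50 (SE 0.070, adjusted p = 0.000505). Another, naming H2bc8, H2bc6 and H2bc4, read 8.73, 8.80, 8.62 and 8.49 against 7.97, 8.11, 8.19 and 8.17. Its groups did not overlap, and it fell by 0.55 (SE 0.076, adjusted p = 0.000459), a change of -31.7%. The remaining pair of probe sets of those 3 genes lay at 3.77 and 5.19 in the controls and differed by -0.02 and -0.05, neither passing.

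One H2B probe set went the other way. It names H2bu2 and the pseudogene H2bu1-ps, and read 6.90, 6.78, 6.94 and 6.83 against 7.13, 7.25, 7.25 and 7.13. All Ctr9 esiRNA arrays were above all controls, and it rose by 0.33 (SE 0.054, adjusted p = 0.00137), a change of 25.7%. The gene and the pseudogene cannot be told apart in it.

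No H3 gene read alone passed. H3c7 (Hist1h3f), the brightest of the 3, read 6.39, 6.49, 6.40 and 6.54 against 6.13, 6.29, 6.58 and 6.35 and differed by -0.11 (SE 0.087, adjusted p = 0.403). H3c4 (Hist1h3d) read 5.28, 5.50, 5.51 and 5.40 against 5.66, 5.51, 5.61 and 5.59; its groups only just did not overlap, and its difference of 0.17 (SE 0.062, adjusted p = 0.0790) did not pass. For H3c11 (Hist1h3i), the third Ctr9 esiRNA array stood at 4.94 while the others lay between 4.42 and 4.49, and the difference was -0.13 (SE 0.11, adjusted p = 0.468). In contrast to the dim single readings, a probe set naming 12 H3 genes was bright. It read 10.22, 10.07, 10.16 and 10.10 against 9.43, 9.64, 9.79 and 9.72, and fell by 0.49 (SE 0.076, adjusted p = 0.000937), a change of -28.9%, with no overlap. A second H3 probe set, naming 8 genes, was dim, at 5.59 in the controls, and fell by 0.60 (SE 0.067, adjusted p = 0.000121). The other 3 H3 probe sets differed by -0.17 to -0.0008 and did not pass. The -0.17 came from a probe set naming the same 8 genes (adjusted p = 0.0521). Another, naming the same 12 genes as the bright probe set, differed by -0.14 (adjusted p = 0.163).

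H4, the partner of H3, was read only through 5 probe sets that name the same 13 genes and so are not separate genes. The brightest read 10.11, 10.07, 10.09 and 10.04 in the controls and 9.49, 9.60, 9.75 and 9.67 after Ctr9 esiRNA. It fell by 0.45 (SE 0.060, adjusted p = 0.000359), a change of -26.9%, without overlap. Another 3, at 4.85, 5.64 and 6.81 in the controls, fell by 0.55, 0.33 and 0.31. Of these, those at 4.85 and 5.64 lay below the median signal of all probe sets, 5.75. The dimmest, at 3.38 in the controls, differed by 0.05 (SE 0.068, adjusted p = 0.669).

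Over the 18 probe sets of several cluster genes, 1 rose, 8 fell (44.4%) and 9 did not pass, beside 11.8% higher and 13.1% lower among all probe sets. Groups did not overlap in 9 of them, beside 28.6% of all probe sets, and these were the same 9 that passed. Their median difference was -0.15, and 15 of 18 lay below 0. Many share genes, so the 18 are not separate readings. Across the 8 that fell and the 3 cluster genes that fell, the first Ctr9 esiRNA array was the lowest of its group in 8 and the second in 3, while the third was the highest in 6.

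**Figure D2:**
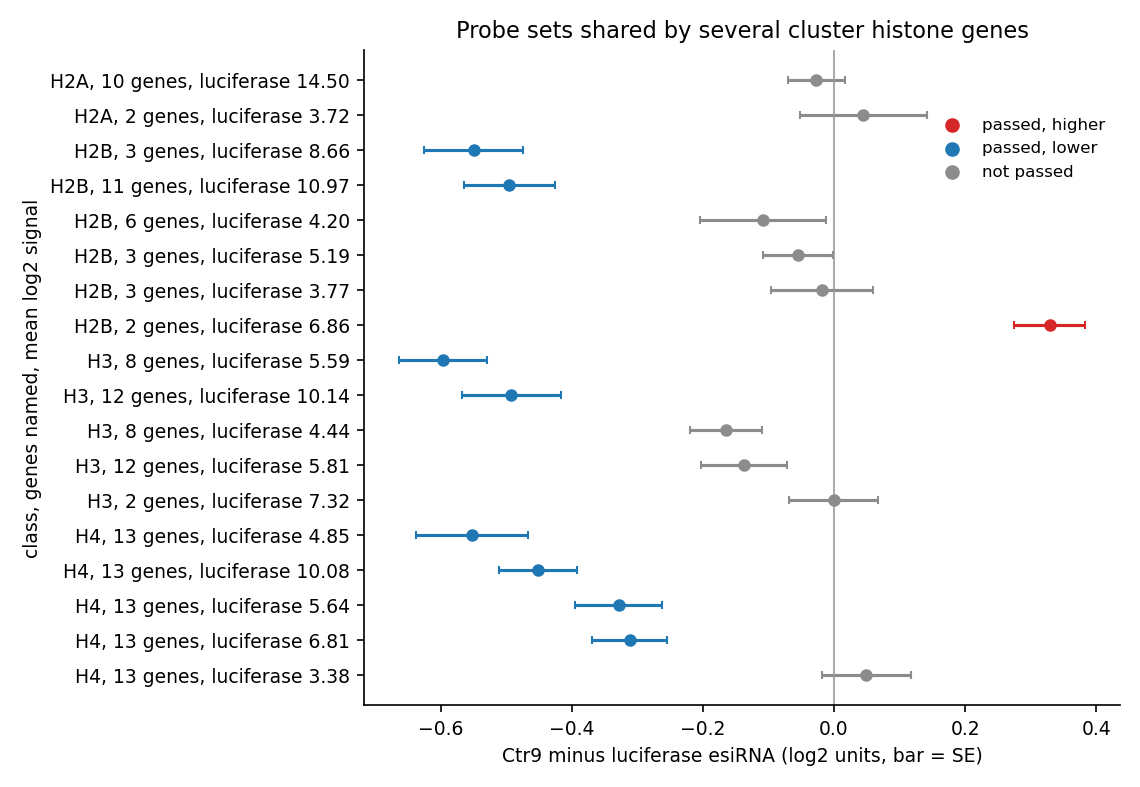
Difference in log2 signal (Ctr9 esiRNA minus luciferase esiRNA, bars are SE) of the 18 several-gene probe sets, ordered by histone class and labelled with the genes named and the mean luciferase signal. The called H2B, H3 and H4 probe sets lie between -0.60 and -0.31 except for the H2bu2 pair at 0.33.

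The promoters of the members are shown for the 3 cluster genes that fell (H1f2, H2aw and H2bc22), for H1f4, a linker gene that did not pass, and for the paired variants H2az2, which fell, and H2az1, which did not pass. Sequences are RefSeq windows of GRCm38.p6 from 250 bases before to 50 bases after the annotated start, read 5′ to 3′ along the gene. Capitals mark matches to any of 4 motifs, searched on both strands. TATAAA is a form of the TATA box. CCAAT is the core of the CCAAT box. TTTGCAT is part of the octamer known from H2B promoters. AAACACA is an element known from H1 promoters. No matches overlapped in these windows. The table held 17 of the 20 members.
H1f2: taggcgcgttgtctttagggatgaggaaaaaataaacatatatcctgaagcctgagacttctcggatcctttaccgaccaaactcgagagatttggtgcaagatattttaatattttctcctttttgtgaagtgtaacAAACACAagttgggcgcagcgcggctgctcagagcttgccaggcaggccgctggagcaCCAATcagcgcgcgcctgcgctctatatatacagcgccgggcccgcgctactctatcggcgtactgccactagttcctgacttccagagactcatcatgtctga
H1f4: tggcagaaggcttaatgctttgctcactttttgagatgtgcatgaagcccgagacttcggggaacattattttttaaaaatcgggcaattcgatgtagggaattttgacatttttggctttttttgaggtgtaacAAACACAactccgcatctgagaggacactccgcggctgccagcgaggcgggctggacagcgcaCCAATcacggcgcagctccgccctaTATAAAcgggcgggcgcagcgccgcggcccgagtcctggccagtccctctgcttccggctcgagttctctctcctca
H2aw: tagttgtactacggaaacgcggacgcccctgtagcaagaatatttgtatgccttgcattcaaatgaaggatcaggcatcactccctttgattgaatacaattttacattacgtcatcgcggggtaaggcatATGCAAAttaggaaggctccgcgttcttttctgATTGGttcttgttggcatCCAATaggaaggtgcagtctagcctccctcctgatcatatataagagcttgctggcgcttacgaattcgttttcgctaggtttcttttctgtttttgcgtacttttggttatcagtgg
H2bc22: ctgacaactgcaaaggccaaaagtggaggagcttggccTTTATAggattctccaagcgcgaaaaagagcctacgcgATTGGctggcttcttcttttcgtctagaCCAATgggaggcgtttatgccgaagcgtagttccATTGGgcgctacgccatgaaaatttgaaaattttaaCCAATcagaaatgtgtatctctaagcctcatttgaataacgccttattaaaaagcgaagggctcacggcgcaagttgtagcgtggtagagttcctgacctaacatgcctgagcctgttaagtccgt
H2az1: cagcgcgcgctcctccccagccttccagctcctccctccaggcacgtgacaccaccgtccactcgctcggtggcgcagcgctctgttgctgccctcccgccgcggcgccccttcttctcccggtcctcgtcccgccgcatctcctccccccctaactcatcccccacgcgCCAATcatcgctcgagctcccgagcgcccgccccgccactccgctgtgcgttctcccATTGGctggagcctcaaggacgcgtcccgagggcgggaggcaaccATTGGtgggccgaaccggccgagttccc
H2az2: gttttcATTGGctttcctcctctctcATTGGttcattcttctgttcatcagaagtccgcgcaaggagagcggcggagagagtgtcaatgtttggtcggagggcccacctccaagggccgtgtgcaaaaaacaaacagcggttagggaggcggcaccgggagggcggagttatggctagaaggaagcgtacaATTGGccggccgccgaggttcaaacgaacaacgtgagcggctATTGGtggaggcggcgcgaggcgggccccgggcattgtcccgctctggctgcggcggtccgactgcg

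These windows lie at chr13:23738557-23738856, plus strand (H1f2), chr13:23622509-23622808, minus strand (H1f4), chr11:58954435-58954734, plus strand (H2aw), chr13:21787238-21787537, plus strand (H2bc22), chr3:137864237-137864536, plus strand (H2az1) and chr11:6444394-6444693, minus strand (H2az2). H1f2 and H1f4 share the AAACACA and CCAAT matches, while H1f2 fell and H1f4 did not pass. AAACACA was found in 5 of the 6 H1 promoters and in 7.18% of all 32851 promoters. CCAAT was found in 85.7% of the 63 cluster promoters, 66.7% of the 9 variant promoters and 37.4% of all. These 9 are not the 9 measured variants: 8 belong to measured variants, and H2ax had no window. TATAAA was found in 55.6% of cluster promoters, 11.1% of variant promoters and 13.6% of all. TTTGCAT was found in 7 of 17 H2B promoters, 7 of 18 H2A promoters and 4.63% of all promoters. In H4 promoters, CCAAT was in 3 of 12 and TATAAA in 8 of 12. A match is a description of letters in the window.

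Among variant histone genes, H2ax, H2az2 and H1f10 fell, by 0.26, 0.17 and 0.17, and all 9 signals lay above the median of all probe sets. Of the 9, 0 rose, 3 fell (33.3%) and 6 did not pass, beside 15.8% higher and 15.0% lower among all genes. At an unadjusted p under 0.05, 0 were higher and 3 lower, beside the same 21.4% and 20.0% of all genes, and a trended, robust prior called 1 higher. Their median difference was -0.09 and their range -0.26 to 0.10; the median was -0.04 without the first luciferase array and -0.14 without the fourth. Groups did not overlap for 2 of the 9 variants and for 4 of the 11 cluster genes, beside 36.6% of all genes. The difference between the cluster and variant groups was not tested.

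H2ax (chr9:44334715-44336077), the H2A variant that is phosphorylated around DNA breaks, read 12.36, 12.36, 12.37 and 12.33 against 12.03, 12.12, 12.13 and 12.09. Every Ctr9 esiRNA array was below every control, and H2ax fell by 0.26 (SE 0.044, adjusted p = 0.00149), a change of -16.7%. H2az2 (H2afv, chr11:6427226-6444511), one of the genes for H2A.Z, a variant at promoters, read 12.62, 12.67, 12.63 and 12.61 against 12.41, 12.48, 12.51 and 12.48. It fell by 0.17 (SE 0.044, adjusted p = 0.0197) with no overlap. A second, dimmer H2az2 probe set read 8.69, 8.74, 8.64 and 8.61 against 8.11, 8.13, 8.16 and 8.17 and fell by 0.52 (SE 0.047, adjusted p = 2.7e-05), more than the brightest. Without the second luciferase array the brightest probe set of H2az2 missed the threshold (adjusted p = 0.0511).

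The other H2A.Z gene, H2az1 (H2afz), read 13.09, 13.05, 13.06 and 13.10 against 13.03, 13.03, 13.11 and 13.06. The groups overlapped, and the difference was -0.02 (SE 0.043, adjusted p = 0.777). Its second probe set, with 3 luciferase values, differed by 0.11 (SE 0.057, adjusted p = 0.214). A bright probe set shared by H2az1 and Gm8203 differed by 0.02 (SE 0.041, adjusted p = 0.783), and another shared by the same pair rose by 0.32 (SE 0.058, adjusted p = 0.00228). H2az2 fell by both its probe sets, while no probe set of H2az1 alone passed; whether the H2A.Z genes differ from each other was not tested.

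H1f10 (H1fx), a replacement linker histone, read 9.78, 9.67, 9.79 and 9.72 against 9.57, 9.69, 9.52 and 9.53. The second Ctr9 esiRNA array lay among the controls, and H1f10 fell by 0.17 (SE 0.054, adjusted p = 0.0491), just inside the threshold. Leaving out any of 6 arrays (luciferase 1, 3 or 4, Ctr9 esiRNA 1, 3 or 4) ended the call, with adjusted p from 0.0749 to 0.121. Median centring, quantile normalization and cyclic loess ended it as well, with adjusted p from 0.0542 to 0.0712.

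Macroh2a1 (H2afy) and Macroh2a2 (H2afy2), H2A variants with a large extra domain, did not pass. Macroh2a1 read 11.27, 11.08, 10.87 and 10.87 against 10.97, 10.93, 10.94 and 10.92, a difference of -0.08 (SE 0.084, adjusted p = 0.557); its first luciferase array was the highest, and without it the difference was 0.00090. Macroh2a1 differed by 0.07 (adjusted p = 0.403) without luciferase arrays 1 and 2 and by -0.23 (adjusted p = 0.0452) without 3 and 4, so no direction is given. Macroh2a2 read 8.51, 8.46, 8.46 and 8.19 against 8.60, 8.44, 8.48 and 8.50, a difference of 0.10 (SE 0.073, adjusted p = 0.373).

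The replacement H3 genes H3f3a and H3f3b encode the same protein. The probe sets of each alone differed by -0.09 (SE 0.12, adjusted p = 0.634) and -0.12 (SE 0.069, adjusted p = 0.278). Their signal on 5 bright probe sets shared with H3f3c and pseudogenes lay between 12.82 and 13.70 in the controls, and these differed by -0.05 to 0.12, none passing. Cenpa, the H3 variant of centromeres, read 11.48, 11.44, 11.35 and 11.33 against 11.46, 11.53, 11.50 and 11.52, a difference of 0.10 (SE 0.050, adjusted p = 0.171). A dim Cenpa probe set fell by 0.31 (SE 0.081, adjusted p = 0.0171), opposite in sign to the brightest, so no direction is given for Cenpa.

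**Figure D3:**
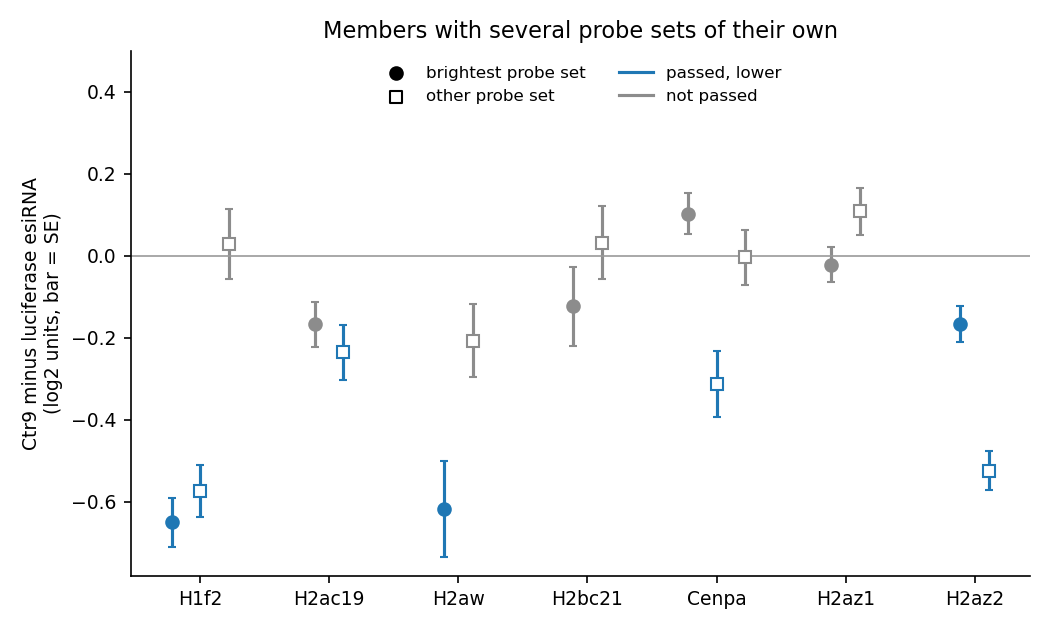
Differences in log2 signal (Ctr9 esiRNA minus luciferase esiRNA, bars are SE) of every own probe set of the 7 members with several; filled points are the brightest, open squares the others, and blue marks those that passed. The probe sets of H1f2 range from -0.65 to 0.03, those of H2az2 from -0.52 to -0.17 and those of Cenpa from -0.31 to 0.10.

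Partners of the histones were read from 6 lists of 125 genes, of which 115 were measured. Of these, 17 rose (14.8%), 21 fell (18.3%) and 77 did not pass, beside 15.8% higher and 15.0% lower among all genes, and their median difference was -0.0031. Among factors of histone mRNA end processing and histone gene transcription, 2 of 18 rose, 1 fell and 15 did not pass, and the median was 0.06. The genes that passed were Slbp, Ncbp1 and Cpsf3. Slbp, the stem-loop binding protein, rose by 0.25 (SE 0.042, adjusted p = 0.00164) by its brightest probe set. Neither the mean over its probe sets (0.046, adjusted p = 0.580) nor the probe set with the largest spread (-0.06, adjusted p = 0.728) passed. The rise is given for the brightest probe set alone. Ncbp1, a subunit of the complex that binds the mRNA cap, rose by 0.27 (SE 0.047, adjusted p = 0.00189). Cpsf3, the nuclease that cuts pre-mRNA ends, fell by 0.15 (SE 0.048, adjusted p = 0.0438), a call that was lost without any 1 of 7 arrays (every array except the third Ctr9 esiRNA array, adjusted p from 0.0621 to 0.0996). Nelfe, a subunit of the pausing factor NELF, differed by 0.15 (adjusted p = 0.112), and by 0.19 without the first luciferase array (adjusted p = 0.0468).

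Among general cleavage and polyadenylation factors, 3 of 17 rose (17.6%), 4 fell (23.5%) and 10 did not pass (median -0.03). The shares among all genes were 15.8% higher and 15.0% lower. The 3 higher calls dropped to 1 without luciferase array 1 or 3 or Ctr9 esiRNA array 3 or 4. Papolg, a poly(A) polymerase, fell by 0.44 (SE 0.056, adjusted p = 0.000285), and Cstf3, of the cleavage stimulation factor, by 0.35 (SE 0.047, adjusted p = 0.000379). Cstf2t, a related subunit, fell by 0.18 (SE 0.044, adjusted p = 0.0118). Rbbp6 was 0.26 higher by its brightest probe set (adjusted p = 0.0107) and 0.33 lower by the one with the largest spread (-0.33, adjusted p = 0.0370).

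Histone chaperones carry histones to and from DNA. Of 29, 5 rose (17.2%), 4 fell (13.8%) and 20 did not pass (median -0.0087), beside 15.8% higher and 15.0% lower among all genes. The 4 lower calls dropped to 2 without luciferase array 2 or 4 or Ctr9 esiRNA array 1, 3 or 4. Rbbp7, a histone-binding subunit of several complexes, rose by 0.45 (SE 0.046, adjusted p = 6.2e-05), and Nap1l1, an H2A and H2B chaperone, by 0.36 (SE 0.045, adjusted p = 0.000236). Asf1b, an H3 and H4 chaperone, fell by 0.16 (SE 0.042, adjusted p = 0.0152), a call lost without luciferase arrays 1 and 2 (adjusted p = 0.0553) or 3 and 4 (adjusted p = 0.0880). For Asf1a the brightest probe set gave 0.22 (adjusted p = 0.00448) and the one with the largest spread -0.42 (adjusted p = 0.00458), so no direction is given.

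S phase genes give the phase in which cluster histone genes are transcribed. Of 28, 3 rose (10.7%), 9 fell (32.1%) and 16 did not pass, beside 15.8% higher and 15.0% lower among all genes. Their median was -0.05. Without the second Ctr9 esiRNA array, 5 were called lower, as without luciferase arrays 1 and 2. Without luciferase arrays 3 and 4, 4 were called lower. Pola1 and Prim1, of the DNA polymerase that starts new strands, fell by 0.41 (SE 0.044, adjusted p = 9.0e-05) and 0.28 (SE 0.047, adjusted p = 0.00172). Ccne2, a cyclin of S phase entry, rose by 0.58 (SE 0.072, adjusted p = 0.000243). Rrm1, which makes DNA precursors, rose by 0.33 (SE 0.045, adjusted p = 0.000406). The list mean lay between 10.92 and 10.93 on luciferase arrays and between 10.87 and 10.89 on Ctr9 esiRNA arrays. Of 9 measured mitotic genes 0 passed (1 higher and 1 lower at an unadjusted p under 0.05), and their mean lay between 11.87 and 11.88 and between 11.87 and 11.92. The part of cell cycle in the lower histone signals was not tested.

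The Paf1 complex is known for its role in H2B ubiquitination. Of 13 listed enzymes and partner proteins of histone ubiquitination, 4 rose (30.8%), 3 fell (23.1%) and 6 did not pass (median 0.04). Among all genes 15.8% rose and 15.0% fell. Usp49, a deubiquitinase, fell by 0.68 (SE 0.060, adjusted p = 2.4e-05), and Usp44, another, rose by 0.33 (SE 0.066, adjusted p = 0.00409). Eny2, of the SAGA deubiquitinating module, was 0.72 higher by its brightest probe set (adjusted p = 8.7e-06) and 0.063 higher by the mean of its probe sets (adjusted p = 0.295). Ube2b, a conjugating enzyme, was 0.36 higher (adjusted p = 0.000261) and by the mean 0.074 higher (adjusted p = 0.397). Of 10 measured genes for other histones and sperm chromatin proteins, 0 passed in the main fit. At an unadjusted p under 0.05, 3 were higher and 0 lower, beside 21.4% and 20.0% of all genes. With median centring, quantile normalization, cyclic loess, array weights, the replicate block or probe sets above the median signal alone, 1 was called higher. A trended, robust prior called 2 higher, as did leaving out the first Ctr9 esiRNA array. The lowest adjusted p was that of H2aj, a replacement H2A (0.16, adjusted p = 0.0560, and 0.0451 with arrays centred on their medians). Its probe set with the largest spread gave -0.51 (adjusted p = 0.000528), and the mean of its probe sets -0.21 (adjusted p = 0.0155).

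**Figure D4:**
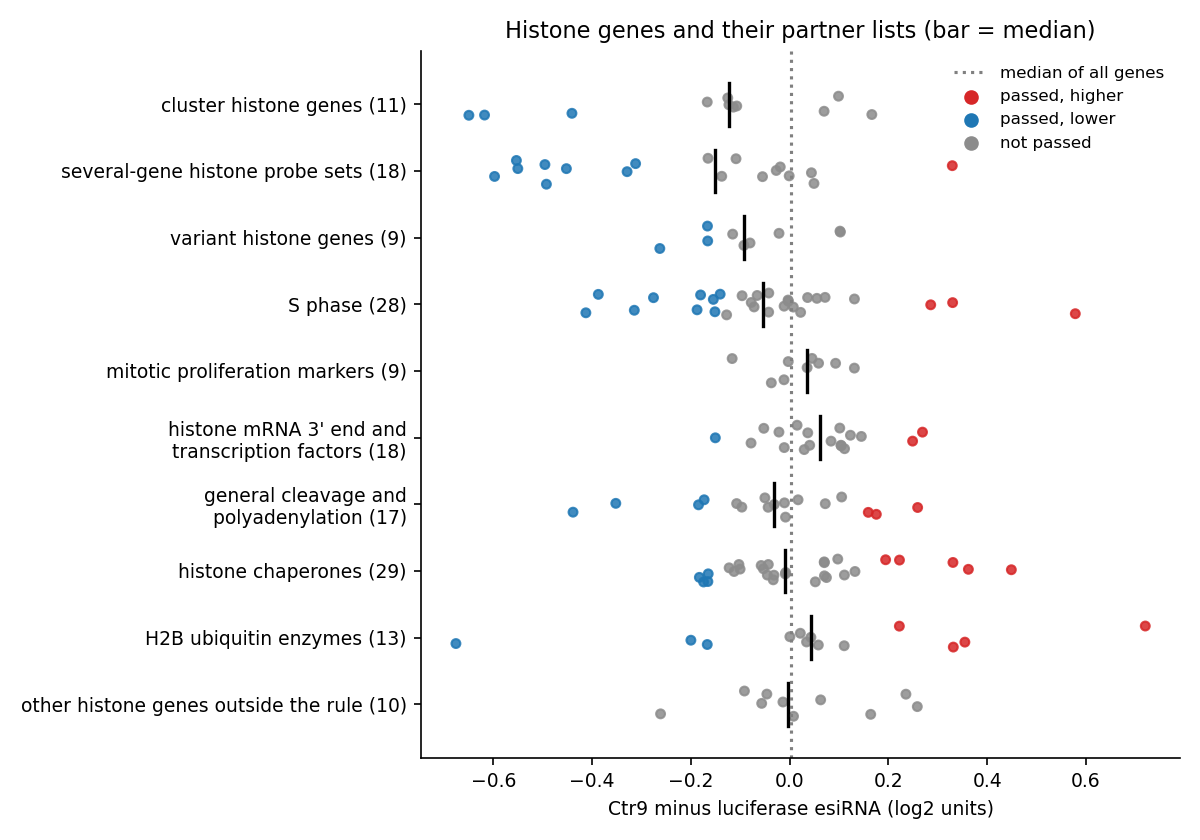
Difference in log2 signal (Ctr9 esiRNA minus luciferase esiRNA) of every measured gene of the 6 partner lists and the mitotic markers, beside the cluster and variant histone genes and the several-gene probe sets; points are genes or probe sets, coloured by call, and bars are medians. List medians of the partners lie between -0.05 and 0.06, and those of the cluster and variant genes at -0.12 and -0.09.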

How the data were processed

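The authors deposited log2 signals per probe set for 8 one-colour Affymetrix arrays, made with GCOS 1.4 and RMA per the submitters' processing notes; the sources used here do not give their settings or genome build. RMA corrects background and brings the arrays to a common distribution. The deposited arrays were close to this but not identical, with medians from 5.74 to 5.76 and 41 to 82 empty values each. The reason for this was not tested. RMA shrinks differences between dim signals and hides any shift common to the whole transcriptome. The values were used as deposited. Of 45101 probe sets, 64 manufacturer's controls were left out; 34945 of the rest have 1 symbol in the platform annotation, 932 several and 9160 none. Names were updated through GRCm38.p6 RefSeq Entrez identifiers; 1 list name that now belongs to another gene was left out.

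Groups were compared with limma 3.58.1 in R 4.3.3 (lmFit, eBayes) with Benjamini-Hochberg adjustment over all 45037 probe sets and a threshold of 0.05; empty values were skipped in a fit. On simulated data of this size, 100% of planted log2 changes of 1, 56% of 0.5, 26% of 0.3 and 8% of 0.2 were found. Only 50 changes of each size were planted among 45037 probe sets, giving 96 calls, against 11209 in the real data. The adjustment was therefore stricter in the simulation, so these shares are not the power of the real comparison. Members and lists were chosen with earlier results of these data known. Named were all variants, in each cluster class the brightest gene and up to 3 of smallest adjusted p, up to 4 per partner list, and passing several-gene probe sets; other genes named beside these were chosen after their values were seen. Alternatives changed scaling, filters, prior, weights, probe set choice, threshold, the block and the arrays kept.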

Additional observations from a re-analysis of the deposited data

Results flagged for a closer look

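In 106 groups of 4 arrays tested, 6 held an array apart from the rest by Dixon's ratio (gap over range) above its critical value. Chance flags about 1 in 20 such groups. The luciferase arrays of H2ax had a ratio of 0.836, from the fourth array at 12.33, and those of Macroh2a2 a ratio of 0.839, from the fourth at 8.19. The Ctr9 esiRNA arrays of H2aw had a ratio of 0.835, from the first at 6.70, and those of H3c11 a ratio of 0.857, from the third at 4.94. Luciferase arrays of Ube2b had a ratio of 0.862, from the first at 10.90, and those of H2aj 0.854, from the third at 10.91.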

How the results depend on the processing

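Across the alternatives, 246 of 267 settings of the counts and medians moved a count by no more than 1.5 times or a median by less than 1 SD between arrays of a group, and 376 of 412 settings of single members kept direction and side of the threshold; 19 lost the call, 10 gained one and 7 turned sign. With probe sets above the median signal alone, 4 of 5 cluster genes were lower (median -0.44) and 5 of 8 several-gene probe sets (median -0.38). In that setting 11287 of all 22518 probe sets kept were called in either direction, a larger share than the 24.9% of the main fit. A trended, robust prior called 1 variant and 26 partner genes higher. At an adjusted p of 0.01, 1 variant, 8 partner genes (lower) and 7000 probe sets were called. The mean of all probe sets of a gene called 1 cluster gene higher (H3c4). Taking each member probe set as a unit gave 5 of 16 lower for cluster genes and 5 of 13 for variants. Adding several-gene probe sets to the cluster genes gave 1 of 29 higher and 11 of 29 lower. Among all probe sets 11.8% were higher and 13.1% lower. Such units share genes, so they are not separate readings.

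Leaving out luciferase arrays 1 and 2, a choice made after seeing the data, gave a cluster median of -0.19, 1 variant lower and 9 partner genes lower, and leaving out 3 and 4 gave 9 partner genes lower. Leaving out 1 array at a time gave 3 to 5 cluster genes lower, a cluster median from -0.19 to -0.085 and a variant median from -0.14 to -0.040, between 9556 and 10135 probe sets called, 15 to 18 partner genes higher and 14 to 18 lower, and 8 to 9 several-gene probe sets lower. H3f3a then ranged from -0.15 to 0.024 and Macroh2a1 from -0.13 to 0.00090, and Macroh2a1 was 0.071 without luciferase arrays 1 and 2 and -0.23, called lower, without 3 and 4. H1f10, H2az2, Cpsf3, Rbbp6 and Asf1b lost their calls without either pair and Cstf2t without 1 and 2.

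Signs turned with averaged probe sets and with the probe set of largest spread for Cenpa (-0.071 and -0.31), H2az1 (0.043 and 0.11), Rbbp6 (-0.093 and -0.33), Asf1a (-0.10 and -0.42) and H2aj (-0.21 and -0.51), and with the latter for Slbp (-0.058). Without probe sets of the cross-matching classes, H2aw was at -0.21 (adjusted p = 0.127), H2bc22 dropped out and 2 of 10 cluster genes were called lower. With the replicate block, 3 cluster genes and 8 several-gene probe sets were called lower, 1 variant and 11 partner genes were called lower (5 of S phase and 1 chaperone), and 9771 probe sets were called. Same-numbered arrays share only a number: their deviations from the group means correlated at 0.060, -0.077, 0.062 and -0.067, and 2 of 4 matched their own number best. H1f10 (adjusted p = 0.113), H2az2 (0.0582), Cpsf3 (0.0841) and Asf1b (0.0534) lost their calls there. Causes were not tested. Dim signals limit 6 of the 11 cluster genes, at or below the median signal. Only 8 of the 18 several-gene probe sets lay above it.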
